A study of Mus musculus with 18 samples.

Results

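The small leucine-rich proteoglycans followed here are 10 genes, Epyc, Dcn, Lum, Bgn, Fmod, Ogn, Aspn, Omd, Prelp and Podn, picked by symbol from the 25124 genes of the count tables. They were brought together because counts of Epyc lay lower in the epididymal white fat (eWAT) of caspase-6 knockout mice than of wildtype mice, and the question was whether the related genes went the same way. The C6KO against WT contrast in eWAT therefore chose the set and is described without a test, whereas inguinal white fat (iWAT), brown fat (BAT) and the WT depots were tested. The samples were iWAT, eWAT and BAT of male mice on a C57BL/6J background, all kept for 12 weeks on a high-fat diet in which fat gave 60% of the calories. Each of the 6 combinations of depot and genotype had 3 libraries of poly(A) RNA. WT mice carried intact Casp6 and C6KO mice a global knockout of it, not limited to a cell type, so an effect cannot be assigned to adipocytes. C6KO and WT mice were littermates from heterozygous parents and were 10 to 14 weeks old when the diet began. Animals were fasted for 10 h before collection. The labels call the libraries biological replicates but do not say which depots came from the same mouse.

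Small leucine-rich proteoglycans are secreted matrix proteins built around leucine-rich repeats, most of which carry chondroitin, dermatan or keratan sulfate chains. They coat collagen fibrils, set fibril spacing and thickness, and hold growth factors such as TGF-beta in the matrix. In fat they are made mainly by fibroblasts and adipocyte progenitors. Class I holds Dcn, Bgn and Aspn, class II holds Lum, Fmod, Prelp and Omd, class III holds Epyc and Ogn, and Podn belongs to a later branch. In bulk tissue, fewer cells of a type and less RNA per cell cannot be told apart.

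Library totals ran from 16506034 to 19043523 counts for iWAT, from 16717201 to 19139694 for eWAT and only from 7803108 to 12428683 for BAT, so the members with few counts were least precisely measured in BAT. Casp6 itself had 289 to 342 counts in WT iWAT against 99 to 141 in C6KO iWAT. In eWAT, WT libraries had 322 to 422 and C6KO libraries 74 to 124 counts, and BAT had 127 to 145 and 26 to 71. Residual Casp6 reads were thus present in all C6KO libraries. The log2 fold change of Casp6 was -1.51 (SE 0.198, edgeR adjusted p = 0.0751) in iWAT. It was -1.5 (SE 0.326, edgeR adjusted p = 0.0671) in BAT. The knocked-out gene itself was therefore not called in iWAT or BAT by edgeR within the depot. A missing call in these depots does not show that a gene was unchanged. The depots showed their defining markers, with brown adipocyte markers summing to at least 6799 CPM (normalized reads per 1000000) in each BAT library and at most 167.0 CPM in each iWAT and eWAT library. Sums of markers are on the scale normalized over all 18 libraries. One BAT library stood apart. Skeletal muscle markers summed to 38126 CPM in BAT WT library 2 and to 49.1 to 7340 CPM in the other BAT libraries, so the calls in BAT are also given without it. Epididymal epithelium markers stayed at or below 0.803 CPM in all 18 libraries.

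Several members are neighbours in the genome (build mm10). On chromosome 10, Dcn (chr10:97479500-97518163) is followed after 47.3 kb by Lum (chr10:97565501-97572703), after a further 34.5 kb by Kera, with 1 other gene in between, and 30.4 kb beyond Kera by Epyc (chr10:97644068-97681900), all on the plus strand. Kera, which encodes the corneal proteoglycan keratocan, had 0 to 4 counts in any library, although it lies between 2 expressed members. On chromosome 13, Aspn, Omd and Ogn stand in a row with gaps of 14.9 and 15.4 kb. On chromosome 1, Prelp (chr1:133910304-133921401, minus strand) lies 3.1 kb from Optc and 115.9 kb from Fmod. Epyc overlaps Gm10754 on the opposite strand, and the spans of Aspn, Omd and Ogn lie within that of Cenpp, also on the opposite strand. These are overlaps of whole gene spans, and overlap of the counted exons was not examined. The strand setting of the counting is not given in the sources used here. Whether any reads were shared between the genes of a pair is therefore not known.

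The 250 bases upstream of the counted start sites of Epyc and Prelp are shown because these members ended at opposite ends of the eWAT comparison. Sequences are from RefSeq (GRCm38.p6), 5′ to 3′ on the gene's strand, with capitals marking any letters that match a searched motif. A promoter entry was found for 8 of the 10 members, and Dcn and Lum had none.
Epyc, chr10:97643818-97644067, plus strand: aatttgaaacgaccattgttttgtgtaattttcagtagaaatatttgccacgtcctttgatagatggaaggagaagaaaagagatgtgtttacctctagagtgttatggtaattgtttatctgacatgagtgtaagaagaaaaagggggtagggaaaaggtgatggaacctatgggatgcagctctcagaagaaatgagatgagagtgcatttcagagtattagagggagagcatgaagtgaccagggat
Prelp, chr1:133921402-133921651, minus strand: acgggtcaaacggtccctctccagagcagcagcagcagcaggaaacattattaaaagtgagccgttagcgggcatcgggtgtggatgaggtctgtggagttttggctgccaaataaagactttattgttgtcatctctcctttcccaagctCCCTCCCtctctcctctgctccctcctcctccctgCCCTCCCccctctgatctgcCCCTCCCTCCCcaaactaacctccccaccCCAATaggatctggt
Motifs were searched on both strands as exact letters. They were the GC box (GGGCGG), the MAZ site spelled CCCTCCC and the box named CCAAT. The TATA box, looked for as its letters TATAAA, the AP-1 site (TGANTCA) and the direct-repeat PPAR response element were searched as well. The Epyc window held none of them and had a GC content of 39.2%, and 10.3% of the 32851 promoters in the table, whose median was 52.4%, had a lower one. The Prelp window had a GC content of 55.6%, 4 matches to CCCTCCC, of which a pair overlap, and 1 match to CCAAT. Of all promoters of this length, 19.7% held the MAZ site, 33.8% the CCAAT box, 12.4% the TATA box and 6.75% the AP-1 site. Only 0.0335% held the PPAR response element as exact letters, so a missing match to it tells little. The TATA letters were found for Ogn and Aspn, with 2 matches each. GC boxes, held by 32.7% of all promoters, were seen for Bgn, with 3, and at a start of Podn other than the counted one, with 2. The MAZ letters were also found for Bgn, with 5 matches, and for Fmod and Podn, and the CCAAT box also for Aspn. A match describes letters and is not a binding site.

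Epyc, which encodes the cartilage proteoglycan epiphycan, was the member with the widest gap in eWAT. The WT libraries held 125, 118 and 157 Epyc counts, and the C6KO libraries held 14, 46 and 17. On the scale of CPM normalized within the depot, this was 7.66 ± 1.38 against 1.43 ± 0.901 (SD, n = 3), or a log2 fold change of -2.40 (SE 0.397). Every C6KO library lay below every WT library. C6KO library 2 was the highest of its group, and without it the log2 fold change was -3.05, or 8.28-fold in place of 5.29-fold lower. Gm10754, the gene that overlaps Epyc, was counted 26, 25 and 59 times in WT eWAT, against 8, 5 and 0 times in C6KO eWAT. Its part in the Epyc counts was not tested.

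Prelp, which encodes a proteoglycan that links collagen to heparan sulfate in basement membranes, went the other way in eWAT. It had 1100, 927 and 1116 CPM in WT and 2088, 1625 and 1686 CPM in C6KO libraries, a log2 fold change of 0.78 (SE 0.145), with no overlap. Its neighbour Optc, a further member of the wider family with far fewer reads, was counted 26, 9 and 10 times in WT eWAT, against 46, 41 and 35 times in C6KO eWAT. The remaining 8 members lay between these ends. Lum, the keratan sulfate proteoglycan lumican, had 599, 526 and 519 CPM in WT and 184, 485 and 303 CPM in C6KO eWAT, and its log2 fold change was -0.76 (SE 0.327). The C6KO libraries were all lower but spread over a wide range, with library 1 lowest. Fmod, fibromodulin, had a log2 fold change of -0.66 (SE 0.272), and its 3 C6KO values, 27.4, 51.6 and 58.2 CPM, lay below the WT values of 65.5 to 85.9 CPM. Ogn, osteoglycin, was at 195.2 ± 8.85 CPM in WT and 142.9 ± 18.1 CPM in C6KO eWAT, a log2 fold change of -0.45 (SE 0.116), without overlap. Dcn, decorin, the most abundant transcript of the family in eWAT, was at 2012 ± 167 CPM in WT and 1610 ± 115 CPM in C6KO, a log2 fold change of -0.32 (SE 0.128), also without overlap. For Bgn, Aspn, Omd and Podn the libraries overlapped, with log2 fold changes of -0.29, -0.34, -0.51 and -0.03.

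In all, 9 of the 10 members had an eWAT estimate below 0, with Podn at -0.03 and from -0.31 to 0.14 when 1 library was left out, against 50.9% of the 14889 genes tested there, and their median log2 fold change was -0.39 against -0.01 for all genes. Libraries of the 2 genotypes did not overlap for 6 members, 5 lower and 1 higher in C6KO, where 23.2% of all genes did so. By the rule used for calls in the other comparisons, a fold change of 1.5 or more with an adjusted p under 0.05, the 2 members past it here would be Epyc and Prelp, and 0.746% of all genes were past it. Nothing is read from these counts, because this contrast chose the set.

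**Figure D1:**
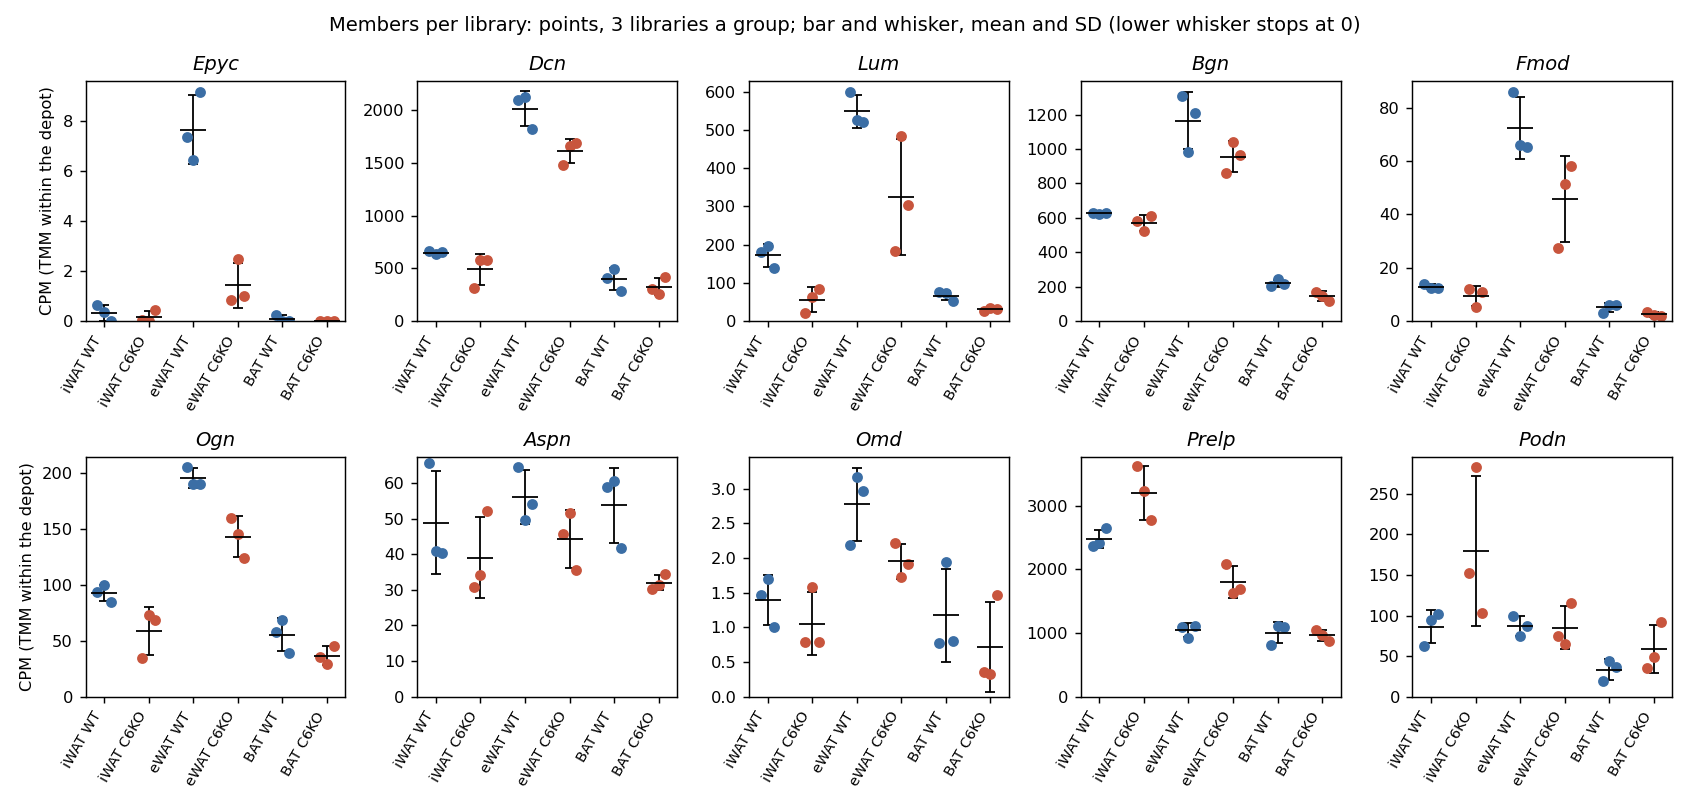
CPM of the 10 members in the 6 groups, normalized within each depot (each panel has its own linear axis from 0; points are libraries, bars and whiskers the mean and SD of 3). Epyc reached 6.45 to 9.15 CPM in WT eWAT and at most 2.47 CPM elsewhere, whereas Prelp was highest in iWAT.

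Other cells of eWAT moved beside these values. The 10 macrophage markers summed to 6377 to 7630 CPM in WT and 4163 to 5405 CPM in C6KO eWAT, with all 10 estimates below 0. The 10 fibroblast and progenitor markers summed to 2169 to 2463 CPM in WT and 1894 to 1946 CPM in C6KO, with 8 of 10 estimates below 0. Mesothelial markers summed to 133 to 229 CPM in WT and 49.0 to 202 CPM in C6KO, which overlap. The 8 adipocyte markers were higher in C6KO eWAT, at 13984 to 18017 CPM against 9943 to 11895 CPM. Endothelial markers were also higher in C6KO eWAT, at 701 to 858 CPM against 513 to 586 CPM, with 6 of 6 estimates above 0. The 7 mural markers summed to 408 to 643 CPM in WT and 606 to 856 CPM in C6KO, which overlap, with all 6 estimates above 0. No defining marker of these 6 lists was at 0 in eWAT, and the part of these cells in the members' values was not tested.

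In BAT, Lum fell in C6KO. Its values were 74.7, 72.2 and 52.6 CPM in WT and 25.9, 33.5 and 31.1 CPM in C6KO, a log2 fold change of -1.14 (SE 0.185, edgeR adjusted p = 0.0249), or 2.20-fold lower. The groups did not overlap, and lumican was the only 1 of 8 members tested that was called, where 1.24% of the 13595 genes tested were called and 1.07% were called lower. Without the BAT WT library rich in muscle transcripts, its log2 fold change was -1.07 (adjusted p = 0.0327), and it remained the only member called. In that fit Aspn was at -0.64, Bgn at -0.52, Fmod at -0.89, Ogn at -0.40, Dcn at -0.10, Podn at 1.05 and Prelp at 0.02, and the estimate of Prelp alone had changed its sign. The call was lost without WT library 1 (adjusted p = 0.0634) and without C6KO library 1, 2 or 3 (0.136, 0.105 and 0.115), although its log2 fold change was -1.24 to -1.01 without a WT library and -1.19 to -1.0 without a C6KO library. Its adjusted p ranged from 4.25e-05, with DESeq2, to 0.138.

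Further BAT members had estimates below 0 without passing the test in edgeR. Aspn, asporin, which binds collagen and restrains TGF-beta, had 58.8, 60.7 and 41.7 CPM in WT and 30.2, 31.4 and 34.4 CPM in C6KO. Its log2 fold change was -0.75 (SE 0.179, edgeR adjusted p = 0.0918), and DESeq2 called it (adjusted p = 0.0228, in a range of 0.0228 to 0.33 over all fits). Bgn, biglycan, a matrix ligand of Toll-like receptors, had 201.6, 241.8 and 213.4 CPM in WT and 170.1, 147.1 and 115.4 CPM in C6KO, a log2 fold change of -0.60 (SE 0.184, adjusted p = 0.176). It was called when all 18 libraries were fitted together (adjusted p = 0.0308, in a range of 0.0308 to 0.506), a fit in which Lum was not called (adjusted p = 0.138). For Lum, Aspn and Bgn the groups did not overlap, and 12.1% of all genes tested lay wholly lower in this way. Fmod and Ogn had log2 fold changes of -1.05 and -0.60 with overlapping libraries and adjusted p of 0.307 and 0.331. Dcn gave -0.29 (SE 0.25) and Prelp -0.06 (SE 0.19, adjusted p = 0.919), with Prelp at 1006 ± 165 CPM in WT and 965 ± 87.1 CPM in C6KO BAT. Podn, podocan, had an estimate of 0.80 (SE 0.46), with 1 C6KO library at 91.5 CPM and the other two at 34.8 and 48.5 CPM. Epyc, with 2 counts in 1 WT library and none in the others, and Omd, with 3 to 22 counts per library, were too low to be tested in BAT. A count of 0 among the 31058751 counts of C6KO BAT allows up to 0.0966 Epyc CPM, for counting error only.

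Macrophage markers in BAT summed to 732 to 1000 CPM in WT and 250.4 to 407 CPM in C6KO libraries, and 5 of 10 were called lower and 0 higher by edgeR (10 lower by DESeq2, and 6 by edgeR without the library rich in muscle transcripts). Fibroblast and progenitor markers overlapped, at 482 to 737 CPM and 446 to 702 CPM, with none of 10 called by edgeR or DESeq2. An unadjusted edgeR p below 0.05 was found for 2 of these 10 and for 1794 of the 13595 genes tested. Endothelial markers were higher in C6KO BAT, at 1159 to 1203 CPM against 821 to 1086 CPM, with none of 6 called by edgeR. Adipocyte markers overlapped, at 17838 to 28213 CPM in WT and 21359 to 24638 CPM in C6KO. Mural markers also overlapped, at 1496 to 2402 CPM in WT and 1464 to 1685 CPM in C6KO. None of the markers of these lists was at 0, and their part in the fall of Lum or in the values of Prelp was not tested.

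In iWAT, edgeR called none of the 9 members tested, and 4 of them had an unadjusted p below 0.05, as did 16.5% of all genes tested. The rule called 0.0275% of the 14533 genes tested, 3 lower and 1 higher. Without C6KO library 3 it called 951 lower and 327 higher, and DESeq2 called 493 and 165, so the few calls in iWAT hang on that library and on the tool. Lum had the lowest estimate, with 181.1, 196.8 and 139.0 CPM in WT and 20.6, 62.0 and 84.4 CPM in C6KO. All C6KO libraries lay lower, and library 1 lay lowest. The log2 fold change was -1.63 (SE 0.472, adjusted p = 0.198), and Lum was called when all 18 libraries were fitted together (adjusted p = 0.048, in a range of 0.048 to 0.502 over all fits). Podn had the highest estimate, 1.06 (SE 0.379, adjusted p = 0.25), with 62.9, 94.0 and 101.8 CPM in WT and 152.8, 282.7 and 103.2 CPM in C6KO. Its groups barely separated, and C6KO library 2 was far above the others. DESeq2 called Podn (adjusted p = 0.0294), as did edgeR without C6KO library 3 (adjusted p = 0.0405), in a range of 0.0294 to 0.518 over all fits. Ogn had a log2 fold change of -0.66 (SE 0.26, adjusted p = 0.272).

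Prelp in iWAT had 2372, 2413 and 2643 CPM in WT and 3617, 3223 and 2768 CPM in C6KO, a log2 fold change of 0.37 (SE 0.161, edgeR adjusted p = 0.295). As in eWAT its groups did not overlap, but the difference in iWAT was below the fold change asked for and did not pass the test. Dcn, Fmod and Bgn had estimates of -0.41, -0.46 and -0.13 with all C6KO libraries below all WT libraries, and Aspn and Omd estimates of -0.32 and -0.40 with overlap. The libraries did not overlap for 7 of the 9 members, 5 lower and 2 higher, where 23.2% of all genes tested did so, and members that share cells and libraries are not independent of each other. Epyc was at the limit of detection, with counts of 11, 6 and 0 in the WT and of 1, 0 and 8 in the C6KO libraries, so a change of Epyc was not detectable at this depth outside eWAT. Macrophage markers in iWAT summed to 1921 to 2114 CPM in WT and to 475.0, 494 and 1387 CPM in C6KO libraries 1, 2 and 3, and fibroblast and progenitor markers to 984 to 1088 CPM in WT and 628 to 843 CPM in C6KO. Adipocyte markers went the other way, as Prelp did, at 26626 to 30286 CPM in WT and 36531 to 38335 CPM in C6KO, with 7 of 8 estimates above 0 and 5 of 8 at an unadjusted p below 0.05, and none was called by edgeR (1 by DESeq2, Pnpla2, higher). Among the C6KO libraries, library 3 had the most Lum, the most macrophage transcripts and the most fibroblast and progenitor transcripts. The fibroblast and progenitor sums were 628, 770 and 843 CPM in C6KO libraries 1, 2 and 3. The part of these cells was not tested.

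**Figure D2:**
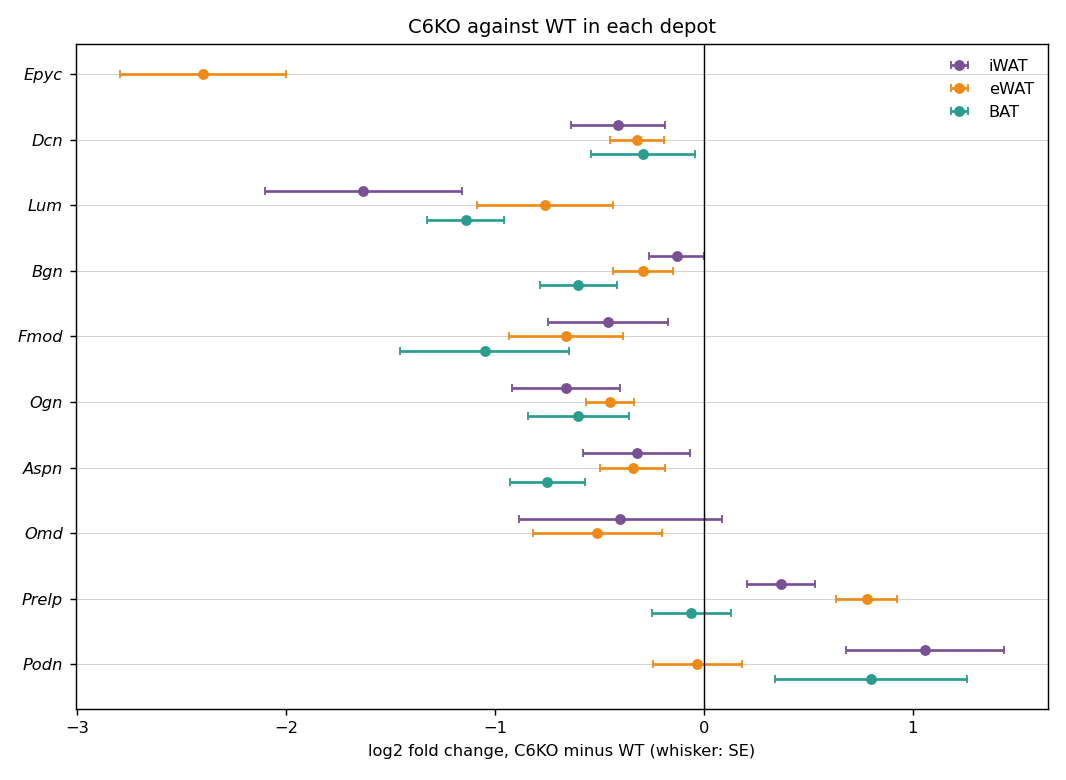
Log2 fold change of each member, C6KO minus WT, in iWAT, eWAT and BAT (points, edgeR estimates, whiskers, SE, 3 libraries against 3). Epyc is shown for eWAT only and Omd for iWAT and eWAT, since they were too low to test elsewhere, and Lum in BAT (-1.14) was the only tested value that was called.

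Read across depots, Lum, Dcn, Bgn, Fmod, Ogn and Aspn had estimates below 0 in iWAT, eWAT and BAT, with Lum at -1.63, -0.76 and -1.14. Prelp and Podn had the only estimates above 0, Prelp in iWAT and eWAT and Podn in iWAT and BAT. The C6KO effect was compared between iWAT and BAT, the pair of depots that did not choose the set. Epyc, at the limit of detection in both depots, could not show a difference and is left out. None of the other 9 members was called for a difference by edgeR or by DESeq2, where edgeR called 0.183% of 15866 genes, and none by edgeR without BAT WT library 2. An unadjusted p below 0.05 was found for 1 of these members and for 9.93% of all genes. That member was Bgn, whose estimate in iWAT was 0.47 higher than in BAT (SE 0.21, edgeR adjusted p = 0.464). For Prelp the difference was 0.43 (SE 0.216, adjusted p = 0.529), and for Lum it was -0.49 (SE 0.564, adjusted p = 0.838). With these SEs, differences as large as the effects themselves could have been missed. A difference of the eWAT effect from the others was not tested, because eWAT chose the set.

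Per kilobase of transcript, the family had another make-up in each depot. Reads per kilobase and 1000000 reads (RPKM, normalized over all 18 libraries) ranked Prelp first in WT iWAT at 695 ± 40.2, ahead of Dcn at 349 ± 6.25 and Bgn at 262 ± 0.88 (SD, n = 3). In WT eWAT the order was Dcn at 973 ± 82.1, Bgn at 439 ± 67.1, Prelp at 264 ± 28.0 and Lum at 240 ± 21.5 RPKM, where the ranges of Prelp and Lum overlapped. In WT BAT, Prelp at 306 ± 43.3 and Dcn at 232 ± 56.8 RPKM overlapped, and Bgn followed at 99.4 ± 6.17 RPKM. Lum came next after these 3 in iWAT and BAT. Podn, Aspn and Ogn lay between 11.3 and 68.5 RPKM on average. Podn and Aspn overlapped in iWAT and eWAT, Aspn and Fmod in eWAT, and Aspn overlapped with both Lum and Ogn in BAT. Omd and Epyc were the least abundant, at 0.692 ± 0.179 and 0.196 ± 0.191 RPKM in WT iWAT, and only in WT eWAT did Epyc, at 4.06 ± 0.732 RPKM, lie above Omd, at 1.24 ± 0.222 RPKM. Even there Epyc made up 0.171 to 0.245% of the summed RPKM of the 10 members.

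The summed RPKM of the 10 members was 1480 ± 25.5 in WT and 1522 ± 59.9 in C6KO iWAT. It was 2057 ± 141 in WT and 1835 ± 98.2 in C6KO eWAT, and 735 ± 77.2 in WT and 613 ± 39.0 in C6KO BAT (SD, n = 3). The sum hides a shift between members. Prelp made up 45.5, 46.2 and 49.1% of it in WT iWAT and 66.9, 56.7 and 52.9% in C6KO iWAT, with no overlap. In eWAT its share was 12.6, 11.8 and 14.2% in WT and 30.1, 21.3 and 23.0% in C6KO. In BAT the shares overlapped, at 36.6, 39.7 and 49.1% in WT and 50.7, 51.4 and 41.2% in C6KO. Lum went from 4.49 to 6.55% of the sum in WT iWAT to 0.663 to 2.80% in C6KO iWAT, and from 4.11 to 5.82% to 2.18 to 3.08% in BAT. Shares add up to 100% in each library, so a higher share of one member lowers those of the others.

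**Figure D3:**
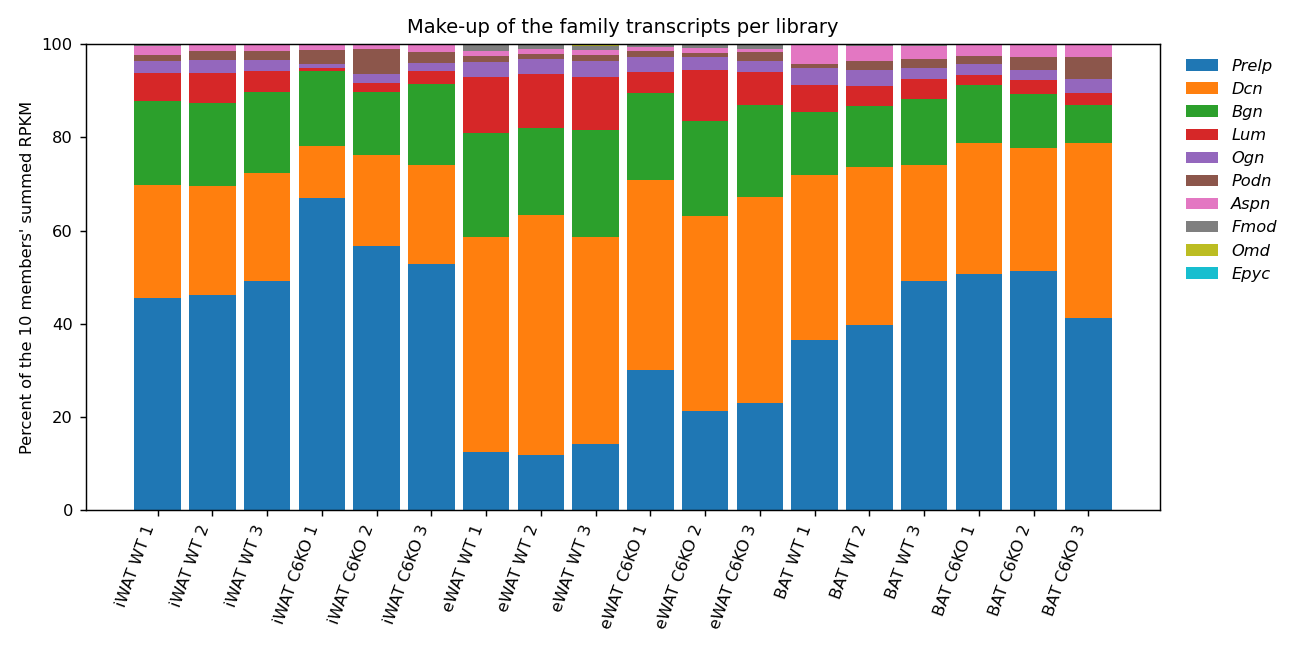
Share of each member in the summed RPKM of the 10 members, as a stacked bar per library (percent, linear axis from 0 to 100). Prelp takes 11.8 to 14.2% in WT eWAT, 21.3 to 30.1% in C6KO eWAT and 45.5 to 66.9% in the iWAT libraries.

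The ratio of Prelp to Lum within a library, picked after the values were seen and so given without a test, sets these members side by side without regard to depth. On a log2 scale of RPKM it was 2.91, 2.82 and 3.45 in WT iWAT and 6.66, 4.90 and 4.24 in C6KO iWAT. In eWAT it was 0.08, 0.02 and 0.31 in WT and 2.71, 0.95 and 1.68 in C6KO. In BAT it was 2.65, 3.14 and 3.58 in WT and 4.54, 4.06 and 4.01 in C6KO. The C6KO libraries lay above the WT libraries in each depot, and the means differed least in BAT, 3.13 ± 0.46 against 4.21 ± 0.29.

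**Figure D4:**
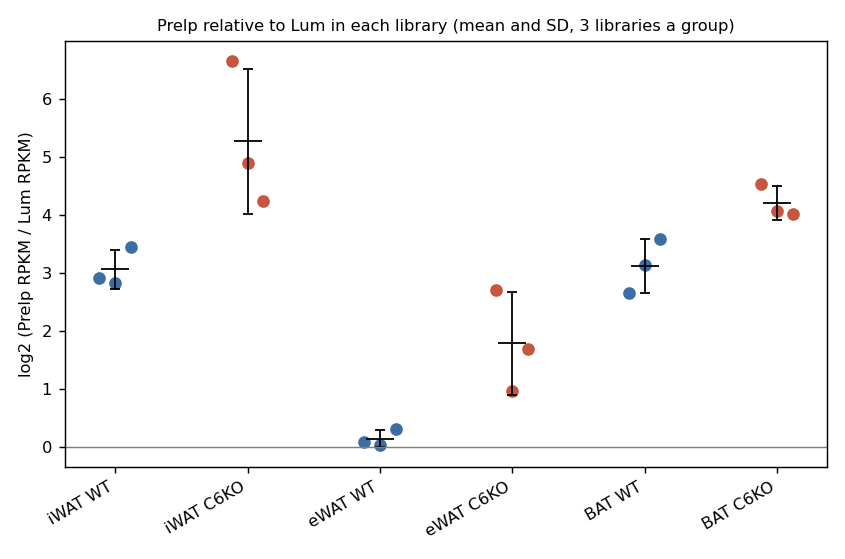
Log2 ratio of Prelp to Lum RPKM in each library by depot and genotype (points, libraries, bars and whiskers, mean and SD of 3). All C6KO libraries lie above the WT libraries of their depot, with WT eWAT near 0 (0.02 to 0.31).

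The depots of WT mice were compared next. Epyc, which passed the filter on low counts only through eWAT, is left out of the counts of members called here. Against iWAT, eWAT was higher for 5 and lower for 1 of the other 9 members, where the rule called 25.7% of 15866 genes, 12.8% higher and 12.9% lower. These WT eWAT libraries also stood in the contrast that chose the set. Fmod was 5.04-fold higher in eWAT (log2 2.33, SE 0.323, edgeR adjusted p = 8.06e-05), Lum 2.86-fold (adjusted p = 0.00957), Dcn 2.79-fold (adjusted p = 0.000181), Ogn 1.89-fold (adjusted p = 0.00824) and Bgn 1.67-fold (adjusted p = 0.0012). Prelp was the exception, at 951 CPM in eWAT and 2500 CPM in iWAT (normalized over all 18 libraries), or 2.63-fold lower (log2 -1.39, SE 0.156, adjusted p = 1.32e-05). Aspn, at a log2 difference of 0.04 (SE 0.224), Podn, at -0.15 (SE 0.403), and Omd, at 0.84 (SE 0.499), were not called.

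Epyc was nearly restricted to eWAT. The 3 WT libraries held 400 Epyc counts in eWAT, 17 in iWAT and 2 in BAT. Per total count, pooled over the libraries of a group, the eWAT level was 23.2 times that of iWAT and 112.1 times that of BAT. Epyc in eWAT chose the set, so these ratios are a description and carry no test or interval. Single libraries weighed on these ratios. Without iWAT library 1, which held 11 of the 17 counts, the ratio to iWAT was 44.4, and without iWAT library 3, which held none, it was 15.1. The ratio to BAT was 68.0 without BAT library 2, 74.4 without BAT library 3 and at least 54.6 without BAT library 1, which held both BAT counts. In C6KO mice the corresponding counts were 77, 9 and 0, so eWAT still held 8.83 times the iWAT level. It was at least 14.9-fold higher than BAT, taking 3 counts over the group as the floor. Of the 9 iWAT counts, 8 were in C6KO library 3, without which 1 count was left and the ratio to iWAT was 54.3. It was 5.54 without eWAT C6KO library 2 and 5.85 without iWAT C6KO library 2.

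BAT was lower than iWAT for 7 of the other 9 members, where the rule called 38.7% of genes in either direction and 18.7% lower. Bgn was 2.64-fold lower (log2 -1.40, SE 0.151, edgeR adjusted p = 1.38e-06) and Prelp 2.27-fold lower (log2 -1.18, SE 0.155, adjusted p = 1.08e-05). Lum, Podn and Fmod had log2 differences of -1.25, -1.25 and -1.21 (adjusted p of 0.0183, 0.0224 and 0.00806). Dcn and Ogn only just passed, at -0.59 and -0.63 (adjusted p of 0.0428 and 0.0432). The number called dropped to 3 without iWAT library 2 and to 4 without iWAT library 3 or BAT library 1 or 3. Without BAT library 2, the one rich in muscle transcripts, the same 7 members were called. Aspn, at 0.26 (SE 0.226), and Omd, at -0.12 (SE 0.528), were not called.

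BAT was also lower than eWAT for 6 of the other 9 members, where 48.6% of genes were called, 23.6% lower. These were Fmod (11.7-fold, log2 -3.55, SE 0.353), Lum (6.82-fold), Bgn (4.42-fold), Dcn (4.18-fold), Ogn (2.93-fold) and Podn (2.15-fold), with edgeR adjusted p from 6.66e-09 for Bgn to 0.0332 for Podn. Without BAT library 2, Omd was called as well (log2 -1.51, adjusted p = 0.0431, against -0.96 and 0.127 with it). Dcn, Lum, Bgn, Fmod and Ogn were thus ordered eWAT, iWAT, BAT with each step called. Prelp did not differ detectably between BAT and eWAT (log2 0.21, SE 0.153, adjusted p = 0.251), and Aspn showed no called step at all. Scaling by total counts alone put the median log2 difference of all genes at 0.15, -0.13 and -0.26 in the 3 depot comparisons, in place of 0.01, 0.01 and 0.03. Under that scaling the BAT minus eWAT estimates of Aspn and Prelp turned to -0.08 and -0.07, and no other member changed direction. Beside the members, macrophage markers were called in eWAT against iWAT for 10 of 10, mesothelial markers for 9 of 9 and fibroblast and progenitor markers for 3 of 10, all higher. Adipocyte markers were called lower in eWAT for 8 of 8, endothelial markers for 5 of 6 and mural markers for 5 of 7, the direction that Prelp took. None of these lists was called the other way in this comparison. In BAT against eWAT, where Prelp was not called, endothelial markers were called higher for 5 and lower for 1 of 6. Adipocyte markers were called higher for 4 and lower for 2 of 8 there, and mural markers higher for 3 and lower for 1 of 7. The part of these cells in the depot order was not tested.

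**Figure D5:**
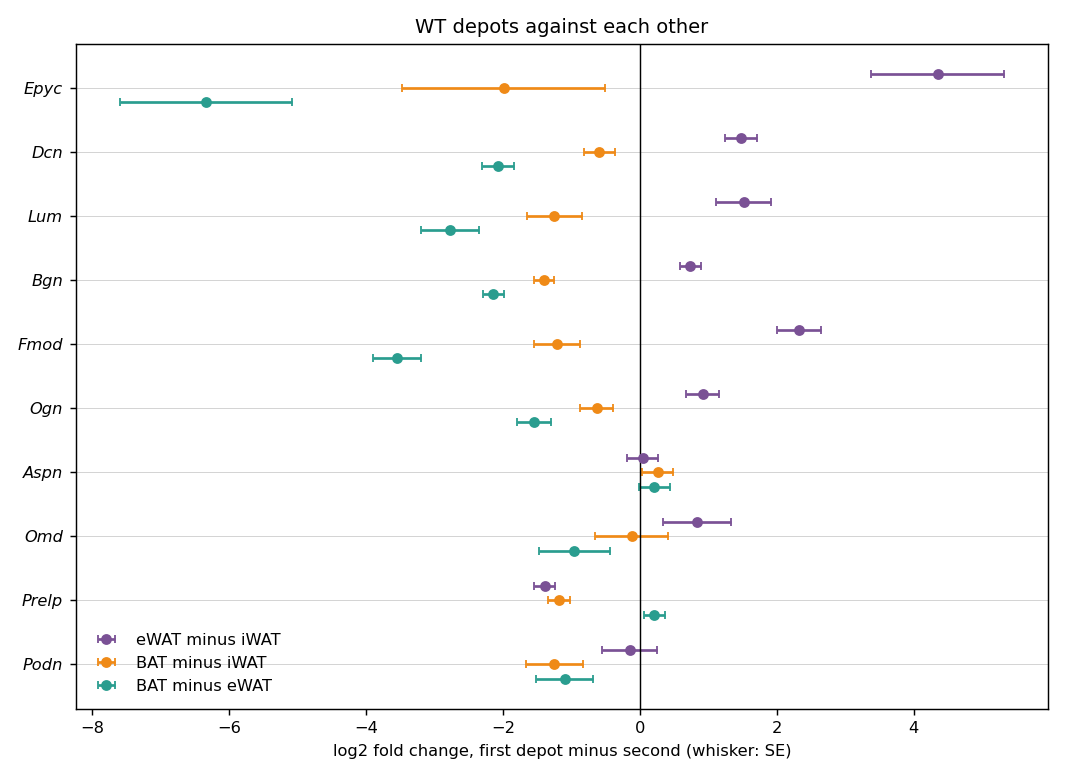
Log2 fold change of each member between WT depots (points, edgeR estimates from the fit of all 18 libraries, whiskers, SE, 3 libraries a group). Most members lie above 0 for eWAT minus iWAT and below 0 for BAT minus iWAT and BAT minus eWAT, whereas Prelp is at -1.39, -1.18 and 0.21.

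Genes that act with these proteoglycans were examined in lists. Fibrillar collagens, whose fibrils the family coats, were called lower in C6KO BAT for 3 of 7 tested and higher for 0, with a median log2 fold change of -1.20 against -0.03 for all genes. DESeq2 called 6 lower and 1, Col11a2, higher. The 3 called by edgeR were Col3a1 (log2 -1.70, SE 0.216, edgeR adjusted p = 0.00972), Col5a2 (-1.36, adjusted p = 0.0132) and Col5a3 (-1.20, adjusted p = 0.0314). Of the collagen-processing genes in BAT, 2 of 17 were called, both lower. They were Pcolce, an enhancer of procollagen trimming (log2 -1.42, adjusted p = 0.0104), and Lox, which cross-links collagen (-1.09, adjusted p = 0.0324). Of the genes that build chondroitin and dermatan chains, 1 of 20 was called, Dse, a dermatan epimerase (log2 -1.15, adjusted p = 0.011). Of the genes that degrade proteoglycans, 2 of 11 were called lower, the aggrecanase Adamts5 (log2 -1.45, adjusted p = 0.0318) and the macrophage elastase Mmp12 (-4.09, adjusted p = 0.0096). All 8 genes were also called without the BAT WT library rich in muscle transcripts. None of the 15 receptor and TGF-beta genes, of the 16 other matrix proteoglycans, of the 6 genes of collagens VI, XII and XIV, of the 5 keratan sulfate genes or of the 3 other family members tested was called in BAT by edgeR within the depot, with 7, 5, 2, 1 and 0 of them at an unadjusted p below 0.05. DESeq2 called 2, 0, 2, 0 and 0 of them. Of all 13595 genes tested in BAT, 1794 had an unadjusted edgeR p below 0.05. The edgeR fit of all 18 libraries called Tlr2, Tlr4, Col6a1 and Col6a2 lower and Agrn higher. In the lists with calls, it also called Col1a1, Col1a2, Col5a1, Loxl2 and Dsel lower and Col11a2 higher.

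In iWAT no gene of these lists was called by edgeR within the depot. The edgeR fit of all 18 libraries called 9 lower and 0 higher, Col3a1, Col14a1, Col6a1, Col6a2, Loxl4, Pcolce, Gpc6, Sdc3 and Tlr2. The lowest p among fibrillar collagens belonged to Col1a1 (log2 -0.93, SE 0.167, edgeR adjusted p = 0.121), and 6 of the 7 tested had an unadjusted p below 0.05. Col14a1, a fibril-associated collagen, had a log2 fold change of -1.29 (SE 0.186, adjusted p = 0.0853). DESeq2 called 5 fibrillar collagens, 4 collagens of types VI and XIV and 4 collagen-processing genes, all lower. It also called the proteoglycans Gpc6 and Sdc3, the proteases Adamts15, Mmp14 and Mmp3 and the receptor Tlr2 lower. The medians of the lists lay between -0.80 and 0.27, against 0.03 for all genes. In eWAT, described without a test, 1 gene of these lists met the call rule. It was Chst1, a keratan sulfate sulfotransferase, at a log2 fold change of 0.74 (SE 0.134). Fibrillar collagens had a median log2 fold change of -0.25 in eWAT, and Col3a1, with the lowest estimate, was at -0.49 (SE 0.169). Col12a1 was at 0.84 (SE 0.289) and Col6a5, a collagen VI chain 249-fold higher in WT eWAT than in WT iWAT, at -0.61 (SE 0.2).

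The genes whose log2 CPM followed Epyc most closely over the 18 libraries, among 15764 genes compared, were Arpc3 (Pearson's r = 0.945), H3f3b (0.944), F630028O10Rik (0.937), Lmo2 (0.934) and Arpc5 (0.933). The libraries fall into depots and share these, so the values describe the depot pattern. Lmo2, for example, averaged 109 CPM in WT eWAT, 73.9 in C6KO eWAT and 14.9 to 39.3 CPM in the other groups. Among members, Dcn (0.884, rank 220 of the genes compared), Lum (0.88, rank 262) and Fmod (0.873, rank 349) followed Epyc most closely. Ogn (0.856, rank 634), Bgn (0.782, rank 1568), Omd (0.625, rank 3200) and Aspn (0.361, rank 5379) came next, and Prelp (-0.266) and Podn (-0.013) did not follow it. Outside eWAT no library held more than 11 Epyc counts, and Epyc in eWAT chose the set, so nothing is read from these values.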

How the data were processed

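The 18 libraries were grouped by depot and genotype from their labels. The authors sequenced poly(A) libraries, used STAR to align reads to mm10 and HOMER to count them over exons, and kept 1 transcript per gene. They deposited raw counts, 1 table per depot, with transcript lengths. Each member had the same transcript in the 3 tables. The annotation, strandedness and tool versions are not given in the sources used here.

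C6KO and WT were compared within each depot with edgeR 4.0.16 in R 4.3.3 (filterByExpr, TMM, robust quasi-likelihood test, Benjamini-Hochberg adjustment over all genes tested). WT depots and the difference of effects used 1 fit of 18 libraries. Epyc was below the filter in iWAT and BAT, and Omd in BAT. SE values come from the F statistic. RPKM used TMM over 18 libraries. DESeq2 1.42.0, other scalings, filters and left-out libraries were alternatives. The main edgeR and the DESeq2 fits of C6KO against WT and of the WT depots were tested on simulated data. The difference of effects and the other alternatives were not. Named genes were the members, list genes that were called or had the 2 smallest p-values (in eWAT the 2 largest changes), Casp6 and the 5 genes most like Epyc. Members and lists were chosen with earlier results of these data known. No value column was left without a sample. In no pair of groups did all 3 samples sharing a replicate number correlate above 0.1 in their deviations. Numbers were therefore not used to pair samples, although this check cannot exclude that depots share mice.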

Additional observations from a re-analysis of the deposited data

How the results depend on the processing

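Replicates were 3 per group, so single libraries weigh heavily, and low counts limited Epyc outside eWAT and Omd in BAT. Of the values recomputed under other settings, 969 kept their direction and side of the threshold, 27 lost and 6 gained a call, and 23 changed direction. A further 3 moved in another way. Podn in C6KO eWAT, described without a test and so not counted there, ranged from -0.31 to 0.14 when 1 library was left out. Where values changed, the cause was not tested.

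The number of members called in iWAT C6KO was 0 and became 1 with DESeq2 and 1 with all 18 libraries in 1 fit, and ranged from 0 to 1 when 1 library was left out. In eWAT, which chose the set and is described without a test, 2 members met the rule, where 0.746% of all genes did. This number became 1 with total counts as the scaling and 0 with all 18 libraries in 1 fit. It ranged from 0 to 3 when 1 library was left out, 3 only without C6KO library 2 and 0 without any 1 of the others. Counts over all genes under other settings are given below, and nothing is read from the eWAT numbers. In BAT C6KO the number called was 1 and became 2 with DESeq2, with a range of 0 to 1. For WT BAT against WT iWAT it was 7 and ranged from 3 to 7.

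Leaving out 1 library turned some directions. For C6KO against WT in BAT, the log2 fold change of Prelp ranged from -0.16 to 0.05. For WT eWAT against iWAT, Aspn ranged from -0.08 to 0.31, and for WT BAT against iWAT, Omd ranged from -0.67 to 0.09. For the C6KO effect in iWAT minus BAT, Dcn ranged from -0.27 to 0.12 and Ogn from -0.25 to 0.21. Omd ranged there from -0.24 to 1.38 and Podn from -0.24 to 0.75. The fitted value of Epyc for this difference ran from -0.94 to 3.35. Epyc was at the limit of detection in both depots and could not show a difference, so nothing is read from that range. With total counts as the scaling, the WT BAT minus eWAT differences of Aspn and Prelp became -0.08 and -0.07.

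Over all genes, C6KO iWAT gave 3 calls lower and 1 higher with edgeR, 493 and 165 with DESeq2, 308 and 58 in the fit of 18 libraries, 54 and 8 with the block, 26 and 6 without a filter, 1 and 1 with at least 10 counts per library, and 951 and 327 without C6KO library 3. For eWAT these were 31 and 80 with edgeR, 190 and 429 with DESeq2, 3 and 1 in the fit of 18 libraries, 116 and 298 with the block, 97 and 224 without a filter and 28 and 39 with total counts, and from 2 and 0 (without WT library 1) to 93 and 254 (without C6KO library 2) with 1 library left out. For BAT they were 145 and 23 with edgeR, 383 and 153 with DESeq2 and 430 and 95 in the fit of 18 libraries, and from 24 and 4 (without C6KO library 3) to 145 and 33 (without WT library 2) with 1 library left out. The iWAT minus BAT difference gave 29 calls with edgeR and 58 lower and 92 higher with DESeq2, 1 and 9 with the compared groups alone, and 74 and 38 without iWAT C6KO library 3. Scaling by total counts changed the split of WT eWAT against iWAT from 2042 lower and 2034 higher to 1528 and 2665, of BAT against iWAT to 3641 and 2552, and of BAT against eWAT to 4987 and 2888.

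With the replicate number as a block, 0 members were called in iWAT, where 54 genes were called lower and 8 higher. In BAT it was 1 member, with 101 genes lower and 12 higher. For the iWAT minus BAT difference it was 0, with 8 genes lower and 19 higher. With Epyc included, 7 members were called for WT eWAT against iWAT (2002 genes lower and 1991 higher). It was 5 for BAT against iWAT (2933 and 3062) and 7 for BAT against eWAT (3750 and 3852). As Epyc is included, the counts of 7 cannot be set beside those above for the other 9 members. In eWAT, which chose the set, 2 members met the rule (116 genes lower and 298 higher), and nothing is read from this. In no pair of groups did all 3 same-numbered pairs of samples correlate above 0.1 in their deviations. Between WT iWAT and WT eWAT all were positive, at 0.091, 0.219 and 0.044. This check cannot exclude that depots came from the same mouse.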
